A study of Mus musculus with 9 samples.

Results

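The integrated stress response and the unfolded protein response were followed here as a list of 39 genes, out of 55450 genes in the count table of the series. A gene was a member if its symbol in that table was one of 39 names: the kinases and sensors that start both responses, their transcription factors and feedback regulators, and targets in amino acid synthesis, protein folding in the endoplasmic reticulum (ER) and disposal of misfolded proteins. Of the 39 members, 38 passed the filter on low counts. The remaining member, Vldlr, the very low density lipoprotein receptor, had 0 counts in all 9 libraries. A count of 0 allows up to 3 counts, or 0.035 CPM (counts scaled to the same library size, with the library totals adjusted by TMM factors) over the 3 libraries at 0 min, 0.035 at 30 min and 0.033 at 60 min, a limit that covers counting error only.

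In the integrated stress response, kinases that sense amino acid shortage, ER stress, haem shortage or viral RNA phosphorylate the translation factor eIF2. Translation of most mRNAs then falls while that of the Atf4 mRNA goes up, and ATF4 protein switches on genes for amino acid uptake, amino acid synthesis and redox balance. The unfolded protein response adds IRE1, which splices the Xbp1 mRNA, and ATF6, which is cleaved in the Golgi, and both raise ER chaperones and the machinery that degrades misfolded ER proteins. Toll-like receptor signalling in macrophages is known to touch both, and secretion of cytokines draws on the same ER folding machinery.

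RNA was measured by total RNA sequencing after ribosomal RNA depletion in IMM, an immortalized mouse macrophage line of wild-type (WT) genotype, given lipopolysaccharide (LPS, the Toll-like receptor 4 ligand of Gram-negative bacteria) at 100 ng/mL. The 3 groups were 0 min, which is the control and carries no LPS, 30 min and 60 min, with 3 libraries each, described by the submitters as biological replicates. All cells were in serum-containing medium, 5 passages after thawing, and a single line stands for macrophages in general. No library without LPS at 30 or 60 min was analysed here, so LPS, handling and time in culture cannot be told apart.

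Library totals ran from 26867428 to 30402308 estimated counts, and a tested member had between 209 (Ddit3) and 42520 (Hsp90b1) counts in a library. The 7 macrophage markers examined summed to between 1790 and 1900 CPM in every library, while 4 of 4 mast cell markers were at 0 and summed markers of fibroblasts, T cells, B cells, neutrophils and epithelium stayed at or below 0.418 CPM. Summed plasma cell markers were between 0.999 and 1.74 CPM (Igkc at 0), endothelial markers between 1.23 and 2.2 CPM, and dendritic cell markers between 8.37 and 9.28 CPM at 0 and 30 min against 6.41 to 7.2 CPM at 60 min. The part of those shifts in the results was not tested. LPS-induced Tnf rose 7.19-fold at 30 min and 11.8-fold at 60 min (edgeR adjusted p = 5.89e-09 and 2.92e-10), higher in 3 of 3 libraries at each time.

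Replicate 2 at 0 min stood apart for these genes. It was the lowest of the 3 control libraries for 21 of 38 members, against 36.2% of all genes tested, and this included 4 of 4 tested stress effectors (median log2 against the other control libraries -0.32) and 5 of 5 amino acid and one-carbon enzymes (-0.17). It was also the lowest for 12 of 12 tRNA synthetases outside the list. For 11 of 13 ER folding members it was instead the highest, with a median of 0.07. Where a member's call against 0 min changed without this library, and for the tested stress effectors, results are given with and without it.

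At 30 min of LPS 2 of 4 transcription factors, 2 of 3 feedback regulators, 3 of 4 tested stress effectors, 2 of 4 ER degradation genes and 1 of 13 ER folding genes rose, and 0 of 5 amino acid and one-carbon enzymes. Of 38 members, 10 rose and 0 fell at an adjusted p under 0.05 in edgeR's quasi-likelihood test with Benjamini-Hochberg adjustment over all 14246 genes tested (the edgeR adjusted p below). That is 26.3% of members called, against 8.18% of all genes tested, of which 4.84% were higher. The list was chosen with earlier results of these data known, so these shares describe it and do not test it for an excess. Tested members also had at least 209 counts in every library. The filter for all genes used a minimum count of 10, and small changes are harder to call at low counts. The 10 were Atf4, Ddit3, Ppp1r15a, Trib3, Ddit4, Chac1, Sesn2, Dnajb9, Herpud1 and Edem1, and 2 of them, Ppp1r15a and Ddit4, rose by more than 1.5-fold, against 2.16% of all genes. The 28 members that were not called had log2 fold changes between -0.12 and 0.17. The 3 libraries at 30 min were all above the 3 at 0 min for 13 members, and such a separation was found for 14.1% of all genes. The median log2 fold change was 0.04 over the members and 0.01 over all genes. Without control replicate 2 the same 10 members were called together with Hspa5, 11 in all. Being bulk RNA, these data cannot tell fewer cells of a kind from less RNA per cell.

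At 60 min feedback regulators (3 of 3) and tested stress effectors (4 of 4) were all higher than at 0 min, as were 3 of 5 amino acid and one-carbon enzymes, while Xbp1, Eif2ak4, Calr and Pdia4 were lower. In total 15 members rose and 4 fell against 0 min by the edgeR adjusted p, 19 of 38 members against 25.0% of all genes (39.5% of members against 13.3% of genes for rises, 10.5% against 11.7% for falls). Rises above 1.5-fold were seen for 6 members, Ppp1r15a, Ddit4, Herpud1, Trib3, Dnajb9 and Chac1, against 4.76% of genes, and falls of that size for 0 members, against 3.22%. The median log2 fold change was 0.049 over members and 0.001 over all genes. All 3 libraries at 60 min lay above the controls for 15 members (19.6% of all genes) and below them for 7 (18.7%). Scaling by library totals alone gave 11 rises and 8 falls, with the median of all genes then at -0.07. Without control replicate 2 there were 13 rises and 2 falls: Atf5, Asns, Mthfd2, Calr and Pdia4 were lost and Hspa5 was gained.

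Between 30 and 60 min the share of members called was near that of all genes. Herpud1 and Nupr1 rose and Ddit3, Xbp1 and Eif2ak4 fell by the direct test of 60 against 30 min, 13.2% of members against 16.5% of all genes tested (8.87% higher and 7.65% lower). No member changed by 1.5-fold or more in that step, against 3.2% of genes up and 1.82% down. Scaling by library totals alone added 3 falls, giving 2 rises and 6 falls. The comparisons at 30 and 60 min share the 0 min libraries, so their values are given side by side and are not counted as repeats of each other.

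**Figure D1:**
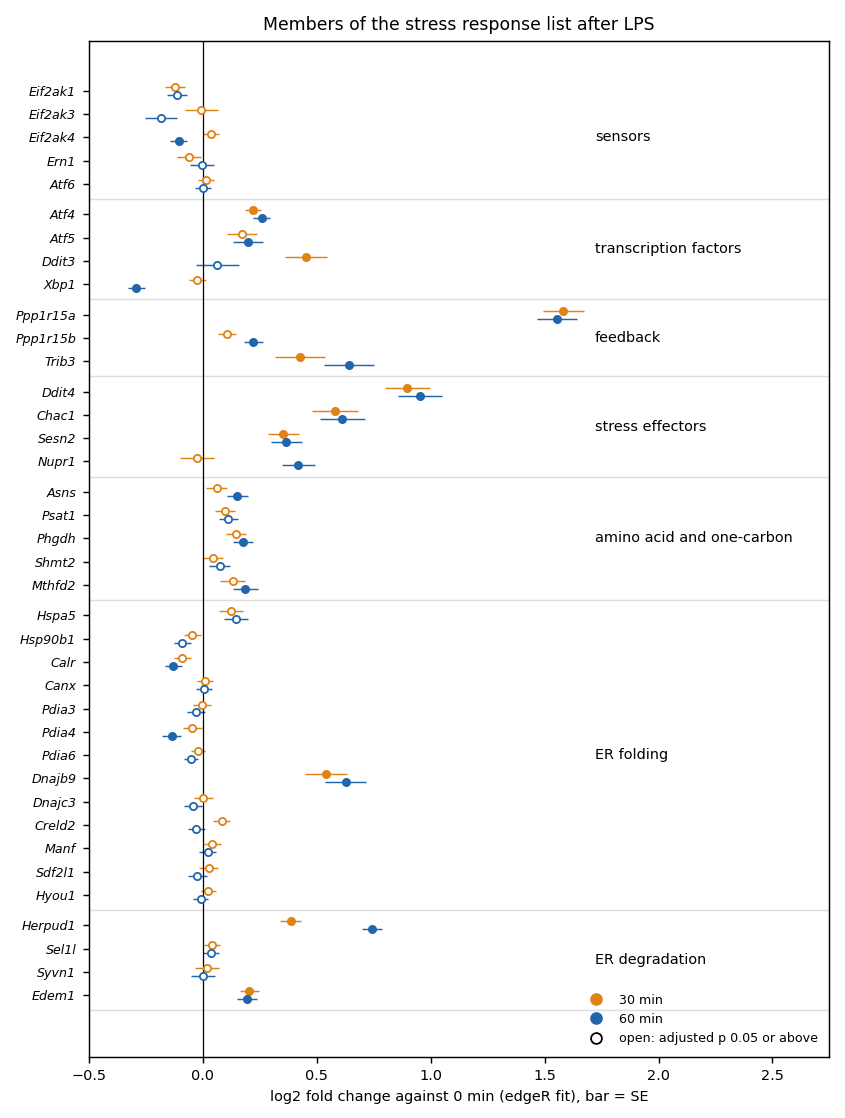
Log2 fold change of each tested member at 30 min (orange) and 60 min (blue) against 0 min in the edgeR fit, with bars of 1 SE, grouped by role; filled points have an adjusted p under 0.05. Ppp1r15a at 1.58 and 1.56 lies furthest right, and 12 of 13 ER folding members at 30 min are open points near 0.

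**Figure D2:**
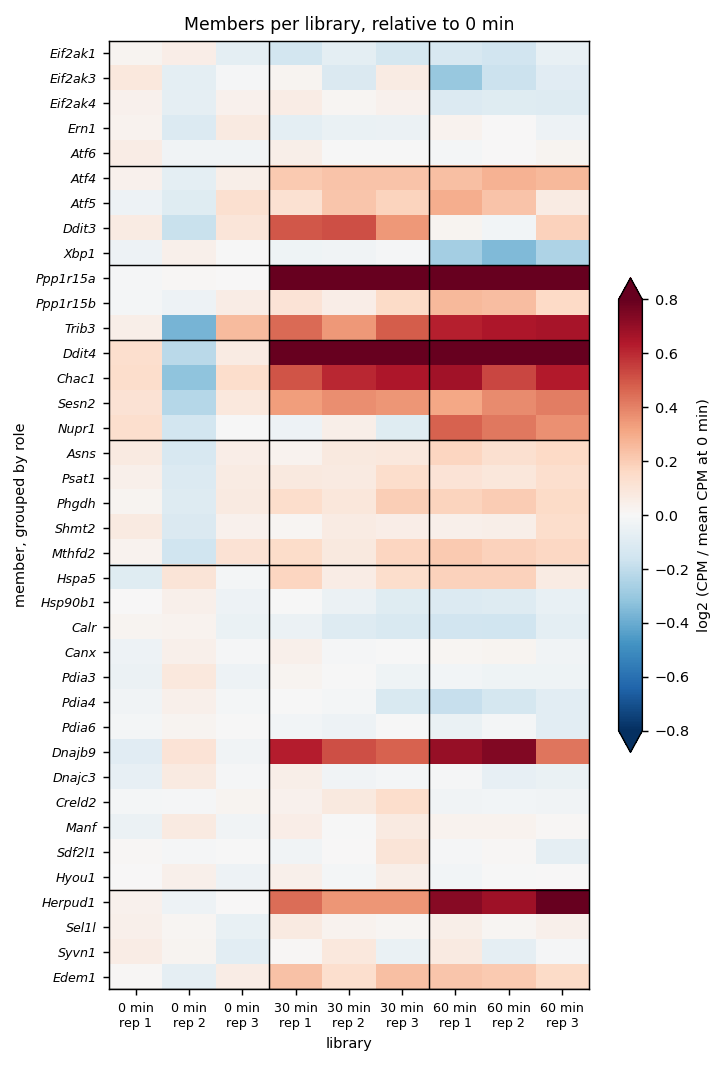
Log2 of CPM in each of the 9 libraries over the mean CPM at 0 min, members in rows grouped by role and libraries in columns; the colour scale stops at 0.8 in each direction, which Ppp1r15a, Ddit4 and 1 Herpud1 library at 60 min pass. The second 0 min column is bluer for the stress effectors and amino acid genes and redder for most ER folding genes.

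The kinases and sensors that start the responses showed small differences in RNA. Of these 5 members, 0 were called at 30 min, 1 at 60 min, and 1 in the direct test of 60 against 30 min. Over all genes tested the shares called were 8.18%, 25.0% and 16.5%. With 5 genes, such counts cannot set the sensors apart from all genes. Eif2ak4 encodes GCN2, the eIF2 kinase that responds to uncharged tRNA. Its CPM was 110, 103 and 111 at 0 min, 112, 109 and 111 at 30 min, and 99.9, 101 and 100 at 60 min. The 60 min libraries were thus the lowest of all, though by a small margin, and the log2 fold change was -0.11 (SE 0.04, edgeR adjusted p = 0.0463) against 0 min and -0.14 (SE 0.04, edgeR adjusted p = 0.0139) against 30 min. The call against 0 min was lost in 11 of 16 alternative analyses, DESeq2 among them (adjusted p = 0.0783), and the call against 30 min in 1, without 60 min replicate 1 (adjusted p = 0.0528).

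Eif2ak3, which encodes PERK, the eIF2 kinase of the ER membrane, had 24.2, 21.5 and 22.6 CPM at 0 min, 23.1, 21.01 and 23.9 at 30 min, and 18.5, 20.2 and 21.4 at 60 min. All 60 min libraries were below the controls, yet the log2 difference of -0.18 (SE 0.07) did not pass the test (edgeR adjusted p = 0.0764). It passed in 3 of 16 alternatives, with totals alone as scaling (adjusted p = 0.0135), with no filter on low counts (adjusted p = 0.0486) and without 60 min replicate 3 (adjusted p = 0.0366). Eif2ak1, the haem-regulated kinase HRI, averaged 72.0 ± 3.49 CPM at 0 min, 66.2 ± 1.84 at 30 min and 66.6 ± 2.23 at 60 min (SD, n = 3), with log2 differences of -0.12 and -0.11 that also missed the threshold (edgeR adjusted p = 0.114 and 0.075). Both passed with totals alone as scaling (adjusted p = 0.0459 and 0.00501) and without control replicate 3 (adjusted p = 0.0423 and 0.0241), and the later one without 60 min replicate 3 (adjusted p = 0.0394). Exons of Eif2ak1 share 487 bases with Aimp2 on the opposite strand. For Ern1 (IRE1) and Atf6 no difference passed: the 95% interval of the 60 min log2 difference was -0.11 to 0.10 for Ern1 and -0.07 to 0.07 for Atf6. These intervals and those below use a normal approximation and are narrower than the edgeR test implies.

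Atf4, the transcription factor at the centre of the integrated stress response, was higher at both times. Its CPM was 388, 358 and 391 at 0 min, 438, 443 and 443 at 30 min, and 448, 459 and 453 at 60 min. Every LPS library was above every control, and those at each time lay close together (SD 3.21 at 30 min and 5.54 at 60 min against 18 at 0 min). The rise was modest, 1.16-fold at 30 min (log2 0.22, SE 0.04, edgeR adjusted p = 0.00132) and 1.2-fold at 60 min (log2 0.26, SE 0.04, edgeR adjusted p = 0.000104). These are RNA levels, and translation of the Atf4 mRNA was not measured.

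Ddit3 (CHOP), a C/EBP-family factor induced downstream of ATF4 and linked to cell death under lasting ER stress, was the one member called higher at 30 min and not at 60 min. It stood at 8.69, 7.34 and 8.89 CPM at 0 min, 11.7, 11.9 and 10.6 at 30 min, and 8.45, 8.17 and 9.43 at 60 min. The 30 min libraries were above all others, and those at 60 min overlapped the controls. The change was 1.37-fold at 30 min (log2 0.45, SE 0.09, edgeR adjusted p = 0.00697), and the value at 60 min was below that at 30 min by a log2 of -0.39 (SE 0.09, edgeR adjusted p = 0.00953). At 60 against 0 min the log2 difference was 0.06, with a 95% interval of -0.12 to 0.25. Ddit3 shares 68 exon bases with Mars, on the opposite strand, whose mean CPM was 87.4, 96.1 and 100 at the 3 times and which rose at 60 min; whether counting used strand is not given in the sources used here. A second identifier with the symbol Ddit3 held 1 count in all.

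Xbp1, whose spliced mRNA encodes the main transcription factor of the IRE1 arm, moved the other way and late. At 0 min it had 118, 125 and 121 CPM, at 30 min 118, 119 and 121, and at 60 min 101, 94.9 and 102. Control and 30 min libraries overlapped and those at 60 min were the lowest, 1.22-fold down from 0 min (log2 -0.29, SE 0.04, edgeR adjusted p = 3.94e-05) and lower than at 30 min by 0.27 on the log2 scale (edgeR adjusted p = 0.000165). Gene-level counts do not separate spliced from unspliced Xbp1. Atf5, an ATF4-related factor that is also controlled in translation, had 34.3, 33.1 and 38.6 CPM at 0 min and 43.3, 41.4 and 36.9 at 60 min, overlapping groups with a log2 difference of 0.20 (SE 0.07, edgeR adjusted p = 0.0426) that was lost in 8 of 16 alternatives, among them without control replicate 2 (adjusted p = 0.15). Atf5 shares 82 exon bases with Nup62 on the opposite strand.

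The largest change of any member belonged to feedback. Ppp1r15a (GADD34) encodes the inducible subunit that brings protein phosphatase 1 to eIF2 and so reverses its phosphorylation. Its CPM was 20.5, 20.7 and 20.7 at 0 min, 70.8, 56.3 and 58.2 at 30 min, and 53.6, 63.3 and 65.0 at 60 min. Control libraries were almost identical, and every LPS library was far above them. It rose 3.00-fold at 30 min (log2 1.58, SE 0.09, edgeR adjusted p = 1.72e-08) and was 2.94-fold above 0 min at 60 min (log2 1.56, SE 0.09, edgeR adjusted p = 6.93e-09), and the difference between those times did not pass (95% interval of the log2 difference -0.18 to 0.13). The promoter is shown because it carries the member with the largest change. These are the 250 bases before the RefSeq start, from RefSeq, build GRCm38.p6, read 5′ to 3′ on the gene's strand, with the palindromic cAMP response element (CRE) in capitals.
Ppp1r15a upstream (chr7:45526269-45526518, minus strand): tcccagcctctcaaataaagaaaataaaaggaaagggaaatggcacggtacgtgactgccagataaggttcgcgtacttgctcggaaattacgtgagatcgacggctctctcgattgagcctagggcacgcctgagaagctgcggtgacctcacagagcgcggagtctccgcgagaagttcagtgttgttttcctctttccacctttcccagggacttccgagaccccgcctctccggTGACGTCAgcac

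The CRE, searched as TGACGTCA on both strands, ended at position -5 from the start. It was present in 1.79% of the 32851 mouse promoters of the same length (250 bases before to 50 after the start) and in 3.09% of those of tested genes. Among the 35 members with a promoter in that set it was found in Ppp1r15a alone. Here and below, member shares count genes, and the 35 members had 39 promoters between them. The shares of all promoters and of those of tested genes count promoters, so the 2 are not fully alike. Of 347 tested genes with a CRE in a promoter, 7.2% were higher at 30 min and 22.2% at 60 min, against 4.64% and 13.6% of the 9422 tested genes that have a promoter there. For the NF-kB motif these shares were 9.36% and 22.4%, and for the AP-1 motif 6.42% and 18.6%. Raised shares were thus not particular to the CRE. A motif match is a description of letters, not of a bound site.

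Ppp1r15b (CReP), the constitutive partner of the same phosphatase, was far less changed. It had 134, 132 and 141 CPM at 0 min, 146, 141 and 151 at 30 min, and 163, 161 and 151 at 60 min. The 60 min libraries were above the controls and those at 30 min overlapped them narrowly, so that it rose 1.17-fold at 60 min (log2 0.22, SE 0.04, edgeR adjusted p = 0.00102) while the 30 min difference of 0.11 did not pass (adjusted p = 0.145). Trib3, a pseudokinase induced by ATF4 and CHOP that dampens ATF4, had 18.2, 13.6 and 21.02 CPM at 0 min, 24.1, 22.4 and 24.6 at 30 min, and 27.1, 27.6 and 27.8 at 60 min. All LPS libraries were above all controls, which were widely spread. Trib3 was 1.34-fold up at 30 min (log2 0.43, SE 0.11, edgeR adjusted p = 0.0276) and 1.56-fold up at 60 min (log2 0.64, SE 0.11, edgeR adjusted p = 0.000529). Without control replicate 2 those log2 changes were 0.27 (adjusted p = 0.0419) and 0.49 (adjusted p = 0.000261), and the 30 min call was lost without control replicate 1 (adjusted p = 0.0661), 30 min replicate 1 (adjusted p = 0.0732) or 30 min replicate 3 (adjusted p = 0.0968).

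**Figure D3:**
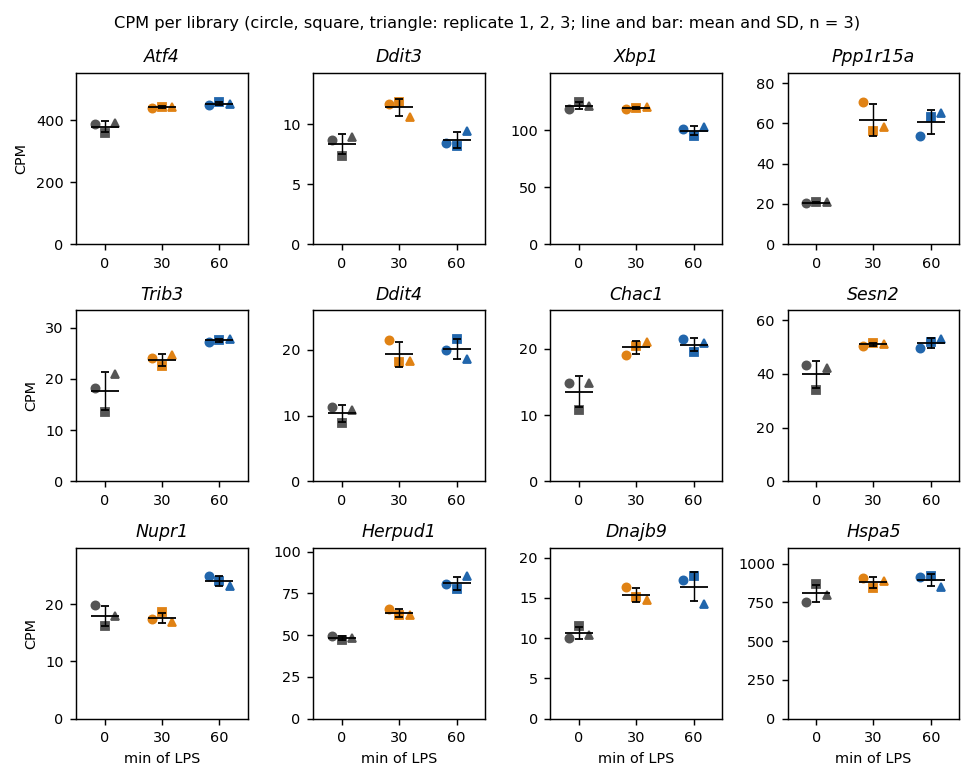
CPM in each library for 12 members at 0, 30 and 60 min of LPS, each panel with its own axis from 0; symbols are replicates 1, 2 and 3, and the line and bar are the mean and SD of 3 libraries. Ppp1r15a, Ddit4 and Sesn2 reach their level by 30 min, Herpud1 climbs in both steps, Nupr1 and Xbp1 leave their control range at 60 min, and Ddit3 overlaps its controls again by then.

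Of the tested stress effectors, target genes of ATF4 and CHOP, 3 of 4 rose by 30 min, against 4.84% of all genes tested. The list is small and was chosen with earlier results known, so an excess was not tested. Ddit4 (REDD1), an inhibitor of mTORC1, had 11.4, 8.92 and 10.8 CPM at 0 min, 21.5, 18.1 and 18.3 at 30 min, and 20.1, 21.7 and 18.6 at 60 min. All LPS libraries were well above the controls, at 1.86-fold (log2 0.90, SE 0.10, edgeR adjusted p = 2.54e-05) and 1.94-fold (log2 0.95, SE 0.10, edgeR adjusted p = 4.6e-06). Without control replicate 2 the log2 changes of Ddit4 were 0.8 and 0.86. Chac1, which degrades glutathione, had 14.8, 10.8 and 14.9 CPM at 0 min, 19.1, 20.5 and 21.1 at 30 min, and 21.5, 19.6 and 20.9 at 60 min. It too had no overlap with the controls, and was up 1.5-fold at 30 min after rounding up (edgeR adjusted p = 0.00189) and 1.53-fold at 60 min (edgeR adjusted p = 0.000399). Without control replicate 2 the log2 changes of Chac1 were 0.45 and 0.48, from 0.58 and 0.61.

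Sesn2, a leucine sensor that restrains mTORC1, had 43.4, 34.2 and 42.3 CPM at 0 min, 50.4, 51.7 and 51.1 at 30 min, and 49.5, 52.0 and 53.0 at 60 min. The 6 LPS libraries formed a tight band above the controls (1.28-fold and 1.29-fold, edgeR adjusted p = 0.00458 and 0.00112). Without control replicate 2 the log2 changes of Sesn2 were 0.25 and 0.27, from 0.35 and 0.37 (edgeR adjusted p = 0.00279 and 0.000597 without it). Nupr1, a small chromatin-associated stress protein, was the late member. It had 19.8, 16.2 and 17.97 CPM at 0 min, 17.5, 18.6 and 16.9 at 30 min, and 24.9, 24.1 and 23.2 at 60 min. Values at 0 and 30 min overlapped and those at 60 min lay above both, a rise of 1.34-fold from 0 min (log2 0.42, SE 0.07, edgeR adjusted p = 0.00062) and of log2 0.45 from 30 min (edgeR adjusted p = 0.00063). Without control replicate 2 the rise of Nupr1 from 0 to 60 min was 0.35 on the log2 scale (edgeR adjusted p = 0.00278). Summed over the 4 tested effectors and Vldlr, CPM went from 81.8 ± 10.3 at 0 min to 108 ± 0.762 at 30 min and 116 ± 0.888 at 60 min (SD, n = 3), with a 0 min mean of 87.7 without control replicate 2 (n = 2).

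Enzymes of serine, one-carbon and asparagine synthesis, which ATF4 controls in amino acid shortage, had small differences, of which 0 of 5 passed by edgeR at 30 min, 3 of 5 at 60 min, and 0 of 5 in the direct test of 60 against 30 min. Over all genes tested the shares called were 8.18%, 25.0% and 16.5%. With 5 genes, such counts cannot set these enzymes apart from all genes. Phgdh, the first enzyme of serine synthesis, had 471, 431 and 488 CPM at 0 min, 512, 494 and 532 at 30 min, and 524, 534 and 514 at 60 min. LPS libraries were above the controls at both times, and the rise passed at 60 min (1.13-fold, log2 0.18, SE 0.05, edgeR adjusted p = 0.00911) but not at 30 min (log2 0.15, adjusted p = 0.0628). The 30 min difference passed in DESeq2 (adjusted p = 0.0176), with no filter on low counts (adjusted p = 0.011) and without control replicate 3 (log2 0.19, adjusted p = 0.0282), and in the authors' deposited table (adjusted p = 0.0373), and it was 0.10 without control replicate 2 (adjusted p = 0.193). With totals alone as scaling Phgdh did not pass at 60 min (adjusted p = 0.0919).

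Mthfd2, the mitochondrial folate enzyme, had 146, 129 and 156 CPM at 0 min and 166, 163 and 161 at 60 min (1.14-fold, edgeR adjusted p = 0.0231). Asns, asparagine synthetase, had 142, 124 and 140 CPM at 0 min and 152, 148 and 151 at 60 min (1.11-fold, edgeR adjusted p = 0.0264). For both genes all 60 min libraries were above the controls, and each call was lost in 4 of 16 alternatives. The log2 changes without control replicate 2 were 0.11 for Mthfd2 (adjusted p = 0.0651), from 0.19, and 0.09 for Asns (adjusted p = 0.0767), from 0.15. With totals alone as scaling they were 0.12 (adjusted p = 0.143) and 0.08 (adjusted p = 0.216). Mthfd2 was also lost without 60 min replicate 1 (adjusted p = 0.0866) or 2 (adjusted p = 0.0587), and Asns without 60 min replicate 1 (adjusted p = 0.103) or 3 (adjusted p = 0.0719). At 30 min Mthfd2 passed with no filter on low counts (adjusted p = 0.0418) and without control replicate 3 (adjusted p = 0.0388). Psat1, the next enzyme of serine synthesis, and Shmt2, which moves a carbon unit from serine to folate in mitochondria, had log2 differences at 60 min of 0.11 and 0.08 that did not pass (edgeR adjusted p = 0.073 and 0.267). Psat1 passed at 60 min in DESeq2 (adjusted p = 0.046), with no filter on low counts (adjusted p = 0.0445) and without control replicate 3 (adjusted p = 0.0349), and its difference was 0.06 without control replicate 2 (adjusted p = 0.242). The sum of the 5 enzymes was 1555 ± 104 CPM at 0 min, 1664 ± 34.1 at 30 min and 1704 ± 14.2 at 60 min (SD, n = 3), with a 0 min mean of 1615 without control replicate 2 (n = 2).

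The ATF4-C/EBP composite element, searched as TGATGNAA on both strands, was found in promoters of 6 of 35 members (17.1%), against 3.97% of all promoters and 2.31% of those of tested genes. Members were listed as genes of these responses, many as ATF4 targets, so the member share is no test of an excess. The 6 sites are shown because they pick out Asns, Chac1, Herpud1, Nupr1, Trib3 and the undetected Vldlr from the list. Each line gives 30 bases of RefSeq sequence, build GRCm38.p6, 5′ to 3′ on the strand that reads the element, which is in capitals.
Asns (chr6:7693214-7693243, minus strand): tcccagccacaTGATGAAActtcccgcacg
Chac1 (chr2:119351038-119351067, minus strand): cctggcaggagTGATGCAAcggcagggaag
Herpud1 (chr8:94386306-94386335, minus strand): ggggtgcgggcTGATGCAAcccgccgtggt
Nupr1 (chr7:126625562-126625591, plus strand): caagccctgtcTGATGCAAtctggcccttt
Trib3 (chr2:152344028-152344057, plus strand): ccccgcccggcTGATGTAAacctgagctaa
Vldlr (chr19:27216809-27216838, minus strand): gctaggagcgcTGATGCAActattgctgct

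Of the 5 tested members with this element, 3 rose at 30 min (Chac1, Herpud1 and Trib3) and 5 at 60 min, with medians of 0.39 and 0.61. Of all 262 tested genes that carry it in a promoter, 7.25% were higher at 30 min and 17.9% at 60 min, with medians of 0.03 and 0.02. In Trib3 the match lies 15 to 22 bases after the RefSeq start, in the transcribed part, and in the other 5 it lies before the start. Members without it in this window also rose, among them Ddit4, Sesn2 and Atf4, and the window says nothing of sites further away.

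ER chaperones and folding enzymes, 13 members and the most abundant of the list, were called at about the rate of all genes. At 30 min 1 of 13 rose and 0 fell (7.69% called against 8.18% of all genes, median log2 0.01). At 60 min 1 rose and 2 fell (23.1% called against 25.0%, median -0.03). Their summed CPM was 6147 ± 201 at 0 min, 6129 ± 125 at 30 min and 6028 ± 12.6 at 60 min (SD, n = 3). The 0 min mean was 6031 without control replicate 2 (n = 2). Hspa5 (BiP, also called GRP78), the ER Hsp70 that holds the sensors inactive, had 754, 868 and 800 CPM at 0 min, 910, 841 and 889 at 30 min, and 917, 919 and 847 at 60 min. Only control replicate 2 overlapped the LPS libraries, and the log2 differences of 0.13 and 0.15 (SE 0.05 for both) did not pass (edgeR adjusted p = 0.176 and 0.0522). Hspa5 passed at 60 min in 5 of 16 alternatives, among them DESeq2 (adjusted p = 0.0119), limma-voom (adjusted p = 0.0393) and the fit without control replicate 2 (log2 0.20, adjusted p = 0.0085), where the 30 min difference of 0.18 passed as well (adjusted p = 0.0454).

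Dnajb9 (ERdj4), an ER co-chaperone that binds IRE1 and misfolded proteins, was the single folding member that rose. It had 9.97, 11.5 and 10.4 CPM at 0 min, 16.4, 15.2 and 14.7 at 30 min, and 17.2, 17.7 and 14.3 at 60 min. No LPS library overlapped the controls, and the change was 1.45-fold at 30 min (log2 0.54, SE 0.09, edgeR adjusted p = 0.00151) and 1.54-fold at 60 min (log2 0.63, SE 0.09, edgeR adjusted p = 0.000125). For this gene control replicate 2 was the highest of its group.

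Calr (calreticulin), the soluble lectin chaperone, had 1000, 1003 and 949 CPM at 0 min, 951, 917 and 904 at 30 min, and 884, 880 and 934 at 60 min. Pdia4 (ERp72), a disulfide isomerase, had 92.3, 96.9 and 92.9 CPM at 0 min and 82.8, 85.2 and 88.8 at 60 min. Both were lower in all 60 min libraries than in any control, and both fell slightly, by 0.13 (edgeR adjusted p = 0.0232) and 0.14 (adjusted p = 0.0288) on the log2 scale. The fall of Calr was lost in 4 of 16 alternatives and that of Pdia4 in 3, each time when a single library was left out, control replicate 2 among them (adjusted p = 0.059 and 0.0907).

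The other 9 folding members did not pass in any comparison of the edgeR fit. Their log2 differences at 60 min were between -0.09 for Hsp90b1 (GRP94, the ER Hsp90) and 0.02 for Manf, a secreted ER stress protein. Hsp90b1 passed as lower at 60 min in DESeq2 (adjusted p = 0.0341), limma-voom (adjusted p = 0.0489) and with totals alone as scaling (log2 -0.16, adjusted p = 0.00369), and its difference was -0.07 without control replicate 2 (adjusted p = 0.216). Pdia6 also passed as lower at 60 min with totals alone (adjusted p = 0.0115). For Canx (calnexin, the membrane lectin chaperone) the 95% interval at 60 min was -0.06 to 0.07, for Pdia3 (ERp57) -0.11 to 0.05, for Pdia6 -0.11 to 0.01, for Hyou1 (GRP170) -0.07 to 0.06 and for Dnajc3 (p58IPK, a co-chaperone that also inhibits eIF2 kinases) -0.12 to 0.04. Creld2 and Sdf2l1, small targets of the unfolded protein response, had 60 min log2 differences of -0.03 and -0.02. Against 30 min, Creld2 passed as lower with totals alone as scaling (adjusted p = 0.0126) and without 30 min replicate 1 (adjusted p = 0.0402).

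The ER stress response element, searched as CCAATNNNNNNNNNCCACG on both strands, is the known ATF6 and XBP1 site of chaperone promoters. It was found in 8 of 35 members (22.9%), in 6 ER chaperone or folding genes, Creld2 and Syvn1. Its share was 0.119% of all promoters (39 of 32851) and 0.125% of those of tested genes. Members were listed as genes of these responses, so their share describes the list and does not test it. The sites are shown because none of the 8 members that carry them rose by the edgeR adjusted p. Each line gives 30 bases of RefSeq sequence, build GRCm38.p6, 5′ to 3′ on the strand that reads the element, with its outer boxes in capitals.
Hspa5 (chr2:34772020-34772049, plus strand): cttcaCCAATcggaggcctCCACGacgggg
Hsp90b1, upstream site (chr10:86705632-86705661, minus strand): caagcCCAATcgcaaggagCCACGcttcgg
Hsp90b1, downstream site (chr10:86705527-86705556, plus strand): aactcaCCAATcgtgcctcaCCACGcactc
Calr (chr8:84847069-84847098, plus strand): tatgggCCAATgagggtcgaCCACGcgttg
Canx (chr11:50325794-50325823, minus strand): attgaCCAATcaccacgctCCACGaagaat
Pdia6 (chr12:17266486-17266515, plus strand): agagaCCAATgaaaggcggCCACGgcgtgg
Dnajc3 (chr14:118937822-118937851, plus strand): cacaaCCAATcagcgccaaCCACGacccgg
Creld2 (chr15:88819515-88819544, minus strand): tgtggaCCAATtgaggctcgCCACGagaag
Syvn1 (chr19:6046527-6046556, plus strand): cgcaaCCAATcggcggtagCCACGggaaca

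Of these 8 members 0 rose at 30 or 60 min in edgeR and 1, Calr, fell at 60 min, with medians of 0.01 and -0.04. Hspa5 was called higher in the alternatives named above. Of all 14 tested genes with the element in a promoter, the 8 members included, 1 was higher at 30 min and 2 at 60 min. Of the 9422 tested genes with a promoter, 4.64% were higher at 30 min and 13.6% at 60 min.

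**Figure D4:**
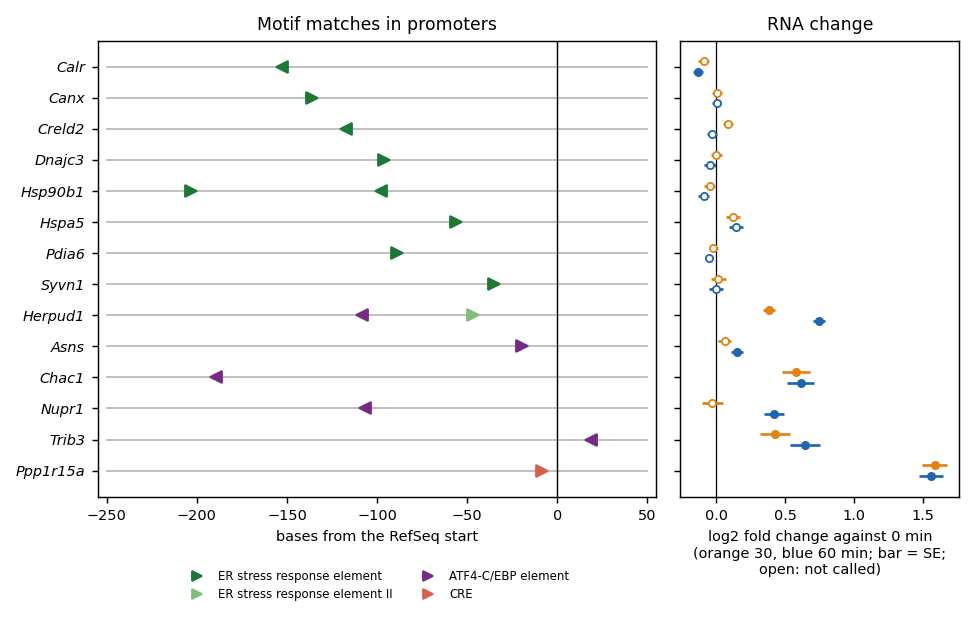
Left, positions of motif matches relative to the RefSeq start in the promoters of 14 members, with arrows pointing right where the motif reads on the gene's strand; right, the log2 fold change of the same genes at 30 min (orange) and 60 min (blue) with bars of 1 SE, filled where called. The 8 genes with an ER stress response element lie near 0 on the right, and the 5 with an ATF4-C/EBP element are all filled at 60 min.

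ER-associated degradation, which takes misfolded proteins back to the cytosol for the proteasome, held the member with the steadiest climb. Herpud1 (HERP), an ER membrane organiser of the degradation complex, had 49.6, 47.1 and 48.4 CPM at 0 min, 65.8, 61.9 and 61.8 at 30 min, and 80.3, 77.5 and 85.3 at 60 min. The 3 groups did not overlap at any step. Herpud1 was up 1.31-fold at 30 min (log2 0.39, SE 0.05, edgeR adjusted p = 4.61e-05) and 1.67-fold at 60 min (log2 0.74, SE 0.04, edgeR adjusted p = 1.15e-08), and the step from 30 to 60 min was log2 0.36 (SE 0.04, edgeR adjusted p = 4.55e-05). Its promoter is shown because it carries both an ATF4-C/EBP element, read here on the opposite strand as TTGCATCA, and ER stress response element II. Element II is ATTGG, any base, then CCACG, searched on both strands. It was found in 0.0365% of all promoters, in 0.0834% of those of tested genes, and in no other member. The 250 bases before the start are from RefSeq, build GRCm38.p6, 5′ to 3′ on the gene's strand, both elements in capitals.
Herpud1 upstream (chr8:94386179-94386428, plus strand): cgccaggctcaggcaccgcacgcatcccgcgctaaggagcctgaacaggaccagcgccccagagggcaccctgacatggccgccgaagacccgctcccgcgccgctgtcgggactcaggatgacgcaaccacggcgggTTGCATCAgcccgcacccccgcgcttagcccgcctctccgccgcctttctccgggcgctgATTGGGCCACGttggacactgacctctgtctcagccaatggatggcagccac

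Element II was added to the motif search after the sequences were seen. Of 10 tested genes that carry it in a promoter, Herpud1 among them, 1 was higher at 30 min, Herpud1 itself, and 4 at 60 min. Edem1, which extracts misfolded glycoproteins from the folding cycle, had 170, 161 and 177 CPM at 0 min, 199, 186 and 200 at 30 min, and 197, 195 and 188 at 60 min. Its LPS libraries were all above the controls and level with each other (1.15-fold and 1.14-fold, edgeR adjusted p = 0.00671 and 0.00328). Sel1l and Syvn1 (HRD1), the core of the ubiquitin ligase complex, had 60 min log2 differences of 0.03 and 0.00 that did not pass, with 95% intervals of -0.04 to 0.10 and -0.10 to 0.10. Syvn1 shares 91 exon bases with Mrpl49 on the opposite strand, which was called in all 3 comparisons.

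Other motifs were spread over members that rose and members that did not. AP-1 (TGANTCA) was found in 4 members, Ddit3, Eif2ak3, Hspa5 and Sel1l, in 7.81% of all promoters and in 5.06% of those of tested genes. The NF-kB motif was found in 3, Creld2, Edem1 and Eif2ak4, in 4.51% of all promoters and in 5.07% of those of tested genes. The ACGTG core was found in 12 of 35 members (34.3%) against 19.6% of all promoters and 25.7% of those of tested genes. The CCAAT and CCACG boxes alone, which overlap the ER stress response element, were found in 27 members each (77.1%). Their shares were 37.4% and 32.8% of all promoters, and 38.3% and 46.5% of those of tested genes. Counted by gene, 2795 of the 9422 tested genes with a promoter had the ACGTG core, 4097 CCAAT and 4888 CCACG.

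Per kilobase of exon, so that genes can be compared, chaperones led the list before LPS. Hsp90b1 had 352 CPM per kb at 0 min, Calr 342, Pdia3 305, Hspa5 191, Phgdh 186 and Canx 186. Atf4, at 161 CPM per kb, was the highest regulator, and rose to 192 at 60 min. The lowest levels were those of Ern1 (3.69), Eif2ak3 (3.78), Dnajb9 (4.16), Ddit3 (4.85), Ddit4 (5.91) and Ppp1r15a (7.02), and Ppp1r15a reached 20.6 CPM per kb at 60 min. Ppp1r15b had 24.3 CPM per kb at 0 min and 28.3 at 60 min, so that its level per length was above that of Ppp1r15a at both times. Neighbours in this order whose 0 min levels differed by less than their spread were Hsp90b1 and Calr (SD 9.91 and 10.7, n = 3), Hspa5, Canx and Phgdh (13.6, 5.33 and 11.7), and Eif2ak3 and Ern1 (0.219 and 0.235).

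The spread between replicate libraries is given by the coefficient of variation. Its median for CPM over the 38 members was 4.81% at 0 min, 3.3% at 30 min and 2.76% at 60 min, and over the 9396 genes with at least 7 CPM on average it was 4.19%, 3.47% and 3.88%. The widest at 0 min was Trib3 at 21.3%.

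Beyond the members, 93 other genes of the same pathways were examined, of which 90 were tested and Fgf21, Stc2 and Derl3 were not. Of the 90, 8 rose (8.89%, against 4.84% of all genes) and 0 fell at 30 min by the edgeR adjusted p. At 60 min 22 rose (24.4% against 13.3%) and 4 fell (4.44% against 11.7%). These lists too were chosen with earlier results of these data known. Among groups, 3 of 6 further ATF4-linked regulators rose at 30 min and 5 at 60 min, 2 and 6 of 14 genes of amino acid transport and synthesis, 0 and 4 of 12 tRNA synthetases, 1 and 2 of 14 folding enzymes, and 0 and 0 of 10 ER import genes. Of 12 genes of the eIF2 machinery 1 rose at each time and 2 fell at 60 min, of 8 ER sensing and processing genes 2 rose and 1 fell at 60 min, and of 14 further ER degradation genes 1 rose at 30 min and 2 rose and 1 fell at 60 min. Without control replicate 2, 8 genes were called at 30 min and 21 at 60 min. Scaling by library totals alone gave 13 rises and 15 falls at 60 min.

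Of these 90 other genes, 4 were called with a change of at least 1.5-fold, the same 4 at 30 and at 60 min. Over all genes tested, 2.16% rose that far at 30 min and 4.76% at 60 min. The count at 60 min was thus near the share of all genes. Gdf15, a stress cytokine, had 2.46, 2.14 and 2.89 CPM at 0 min, 14.8, 12.5 and 11.3 at 30 min, and 16.7, 20.03 and 17.6 at 60 min (5.12-fold and 7.23-fold, edgeR adjusted p = 1.98e-08 and 7.52e-10). Slc7a11, the cystine transporter, averaged 52.4 ± 4.71, 79.5 ± 5.47 and 153 ± 10.2 CPM at the 3 times (SD, n = 3; 1.52-fold and 2.91-fold, edgeR adjusted p = 3.61e-05 and 4.82e-10). Cebpb, the C/EBP factor that pairs with ATF4, averaged 102 ± 4.64, 188 ± 10.3 and 251 ± 20.2 CPM (1.84-fold and 2.46-fold, edgeR adjusted p = 1.17e-07 and 5.66e-10). Atf3, an ATF4 target and repressor, averaged 31.7 ± 0.742, 65.4 ± 3.48 and 73.2 ± 5.16 CPM (2.07-fold and 2.31-fold, edgeR adjusted p = 9.47e-09 and 7.52e-10). In all 4 the LPS libraries were above every control, and Gdf15, Slc7a11 and Cebpb also rose from 30 to 60 min (log2 0.50, 0.94 and 0.42). For Atf3 that step was 0.16 (edgeR adjusted p = 0.0476) and was not called in 11 of 16 alternatives.

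**Figure D5:**
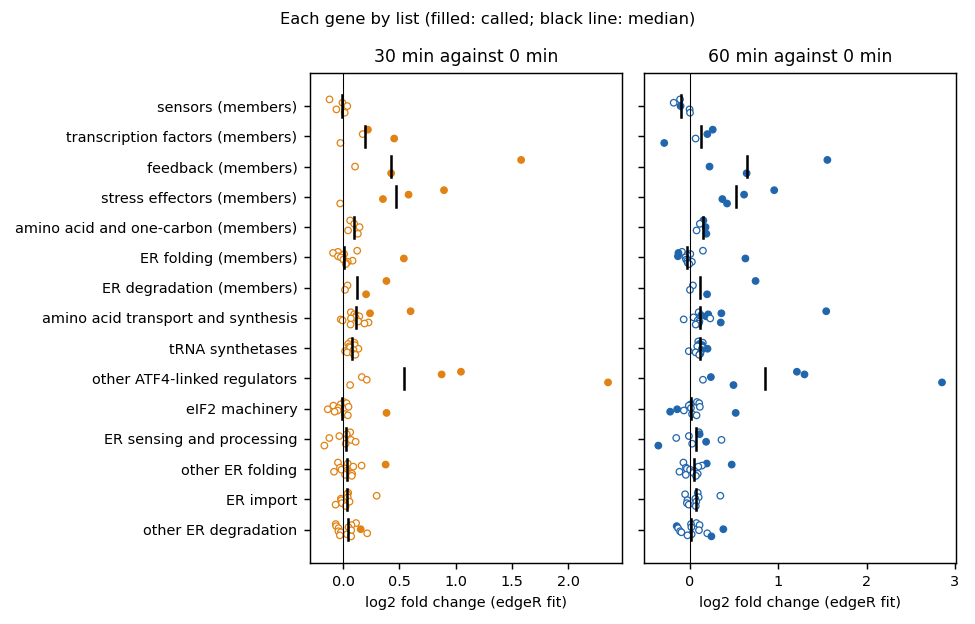
Log2 fold change in the edgeR fit of each member and of each of the 90 other tested genes, by list, at 30 min and 60 min against 0 min; filled points are called and the black line is the list's median. Member feedback regulators and stress effectors and the further ATF4-linked regulators have medians right of 0.3 at both times. The ER lists have medians near 0, except the ER degradation members, at 0.12 and 0.11.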

How the data were processed

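Gene-level expected counts of 9 libraries were deposited by the authors as 1 table, and the fractional values were rounded here (5.04% to 5.32% of genes per library were not whole). Build mm10 is listed in the submitters' processing notes, beside the programs RSEM 1.3.1, STAR 2.7.0f, cutadapt 1.18, Picard 2.18.26, bcl2fastq 2.20 and DESeq2, with no role or order. Which gene models were counted, and whether by strand, is not given in the sources used here. The authors' deposited DESeq2 tables, with log2 fold changes, p-values, a mean signal (baseMean) and a Wald score per gene, were compared with the calls made here only.

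Counts were fitted with edgeR 4.0.16 (R 4.3.3; quasi-likelihood test, 1 model for the 3 times, TMM factors 0.9705 to 1.034, filterByExpr with a minimum count of 10, Benjamini-Hochberg adjustment over 14246 genes, two-sided). CPM use totals scaled by the TMM factors, except for cell type markers, which use plain totals. SE is the log2 fold change over the root of F, and intervals are 1.96 SE to each side. That factor is the normal one, so the intervals are narrower than the edgeR test implies. For Trib3 at 60 against 30 min the interval of 0.006 to 0.424 excluded no change, while the unadjusted edgeR p was 0.0634. The intervals are thus approximate, and calls rest on the adjusted p alone. DESeq2 1.42.0 and limma 3.58.1 were alternatives, and the edgeR code was tested on simulated data. Libraries of a group differed by more than sampling noise, with mean chi-square values of 5.03 to 18.7 per gene. The medians were 0.867 to 1.39, so genes with large values drew up the means. Lengths and exon overlaps are from GENCODE M21, build GRCm38. RefSeq promoters matched 35 of 39 members.

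Any tested member could be named, and of the other pathway genes those called with at least 1.5-fold change; Mars1 and Gcn1 were matched as Mars and Gcn1l1 by RefSeq synonyms. Members and lists were chosen with earlier results of these data known.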

Additional observations from a re-analysis of the deposited data

Results flagged for a closer look

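For 5 members the change at 60 min differed from that at 30 min by the direct edgeR test of 60 against 30 min. Ddit3 was lower at 60 min by a log2 of -0.39, Xbp1 by -0.266 and Eif2ak4 by -0.142. Nupr1 was higher by 0.446 and Herpud1 by 0.359. Values per library stand in the report.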

How the results depend on the processing

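Of 16 alternative analyses none reversed the direction of a member's difference that was called as reported or in an alternative. Of members called in none of them, with totals alone as scaling 6 of 23 turned sign at 30 min, 6 of 13 at 60 min (Atf6, Ddit3, Canx, Manf, Sel1l and Syvn1) and 9 of 28 between 30 and 60 min. Members called numbered 9 to 14 at 30 min (10 as reported) and 13 to 21 at 60 min (19 as reported), and the same ranges with single libraries left out were 9 to 14 and 13 to 20. Between 30 and 60 min they were 5, 8 with totals alone as scaling, and 4 to 6 with single libraries left out. Calls of Atf4, Ddit3, Xbp1, Ppp1r15a, Ddit4, Chac1, Sesn2, Nupr1, Dnajb9, Herpud1 and Edem1 held in 16 of 16. Other pathway genes called numbered 7 to 13 with single libraries left out at 30 min (8 as reported; 13 without 0 min replicate 3), 15 to 29 at 60 min (26 as reported; 15 without 60 min replicate 1 and 16 without replicate 2) and 5 to 8 between 30 and 60 min (8 as reported; 5 without 30 min replicate 2 or 60 min replicate 2). Same-numbered libraries of different times did not deviate together (correlations of deviations from -0.064 to 0.0061), so the numbers were not taken as pairs. With the replicate number as a block, members called were 10, 17 and 5 in the 3 comparisons and other genes 8, 23 and 5, and Eif2ak4 and Atf5 were lost at 60 min. Totals alone as scaling moved the share of calls that were rises over all genes from 59.1% to 45.9%, 53.1% to 30.1% and 53.7% to 37.5%. The authors' deposited tables listed 11 members as higher and 0 as lower at 30 min (Phgdh added), and 15 and 3 at 60 min (Hspa5 added, Eif2ak4 and Atf5 missing). With 3 libraries a group the smallest member changes called were of about 1.1-fold, and for the members of lowest count, such as Ddit3 at 209 counts in 1 library, changes of that size were not detectable.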

Other observations

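Some other genes of these pathways changed by less than 1.5-fold and are named here after their values were seen. Impact, an inhibitor of GCN2 activation, had 29.7, 30.7 and 30.5 CPM at 0 min, 41.7, 38.9 and 38.2 at 30 min, and 42.7, 44.8 and 42.7 at 60 min, and rose at both times (log2 0.39 and 0.52) with no overlap with the controls. It was the single riser among 12 genes of the eIF2 machinery, where Eif2ak2 (PKR, the eIF2 kinase of viral RNA) and Eif2b4 fell at 60 min by 0.22 and 0.15 on the log2 scale, calls that were lost in 4 and 11 of 16 alternatives. Ero1l, the oxidase that recharges disulfide isomerases, had 93.1, 87.4 and 101 CPM at 0 min, 129, 123 and 114 at 30 min, and 140, 128 and 123 at 60 min, and rose at both times (log2 0.38 and 0.47).

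Slc3a2, the partner chain of Slc7a11 in the cystine transporter, had 191, 187 and 186 CPM at 0 min, 222, 223 and 219 at 30 min, and 232, 236 and 252 at 60 min, and rose at both times (log2 0.24 and 0.36). Jdp2, a repressor related to ATF3, rose at 60 min (log2 0.49) and had a log2 difference of 0.06 at 30 min that was not called. Ube2j1, the ER ubiquitin-conjugating enzyme, was higher by 0.16 at 30 min and by 0.38 at 60 min on the log2 scale, both against 0 min, and its 30 min call was lost in 5 of 16 alternatives. Edem3, a relative of Edem1, fell at 60 min by 0.15, a call lost without control replicate 2 (edgeR adjusted p = 0.0563) or 60 min replicate 2 (edgeR adjusted p = 0.0802).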
